A study of Mus musculus with 36 samples.

Results

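Mice that received cromolyn together with azoxymethane were compared with mice that received azoxymethane alone, in colon samples labelled as preneoplastic lesions (the series' design text speaks of colon tumour). Azoxymethane (AOM) is a carcinogen that gives rise to tumours of the colon epithelium in mice, and cromolyn is a drug classed as a mast cell stabiliser because it limits the release of granule contents from mast cells. Of the 36 samples of the series, 6 form the comparison: 3 of the group labelled Kit-B6-AOM, here AOM only, and 3 of the group labelled Kit-B6-AOM+CA, here cromolyn with AOM. Samples were chosen by these labels, and all 988 genes of the panel are described. AOM only stands for 3 intraperitoneal injections of AOM given over 3 weeks, with death after a further 3 weeks. In cromolyn with AOM, cromolyn was injected alongside AOM for 3 weeks and the mice were likewise killed 3 weeks later, so these samples were taken after a span without the drug. A group of 3 samples given AOM for 3 weeks and then cromolyn for 3 weeks (Kit-B6-AOM-CA, here cromolyn after AOM) and a group of 3 wild-type lesion samples (Kit-B6-PN, with the labelled treatment of AOM only) serve for comparison. All 4 groups are wild-type C57BL/6 mice at week 14 after birth, and all received AOM. The labels give no dose for cromolyn and name no vehicle injection for AOM only. For the cromolyn groups the number of AOM injections is not given, so equal exposure to AOM is not known. They do not say whether the groups were prepared or sequenced together, and the part of a run or batch in the differences below was not tested. Nor do they tie the replicates to different animals, so each p-value reflects how far the samples scatter, and part of that scatter may be technical.

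The question the design asks is what mast cells do in the early steps of colon tumour formation. Mast cells are tissue-resident cells that depend on the receptor Kit and store histamine and proteases in granules. Cells display peptides on major histocompatibility complex (MHC) class I molecules after the proteasome has cut proteins and the Tap transporter has carried the pieces into the endoplasmic reticulum. Antigen-presenting cells such as B cells, dendritic cells and macrophages display peptides on MHC class II molecules under control of the coactivator Ciita, and interferon-gamma raises both sets of genes. The colon also holds lymphoid follicles, clusters of B cells and T cells that are gathered by chemokines such as Ccl19 and Cxcl13.

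RNA was read with a targeted immuno-oncology panel (QIAseq), which amplifies a short stretch of each chosen transcript. Total counts lay between 449880 and 544886 in the 6 libraries, and 877 to 894 of the 988 genes had a count in each. Levels are given as CPM, counts relative to a library's total on a common scale after TMM scaling, a correction for libraries in which a few genes take a large share. Differences are log2 values, cromolyn with AOM minus AOM only, with a standard error (SE) and an adjusted p from the quasi-likelihood test of edgeR with Benjamini-Hochberg adjustment over the 768 genes with enough counts. A gene passed at an adjusted p under 0.05. Genes left out of the test had too few counts. Genes of colon epithelium marked every library: the 7 panel members of that list summed to 98211 to 117072 CPM in AOM only and 58099 to 87488 CPM in cromolyn with AOM. No marker that tells a lesion from the mucosa around it was examined. Libraries of cromolyn with AOM differed more among themselves than those of AOM only, with a median SD of log2 CPM of 0.262 against 0.195 over the genes tested.

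Cromolyn with AOM differed from AOM only in 1 gene that rose, Psmb9, and 1 that fell, Abcg2, so that 0.26% of the 768 genes passed, 0.13% in each direction. Psmb9, the inducible catalytic subunit of the immunoproteasome, was 1.03 higher on the log2 scale and the efflux transporter Abcg2 was 0.95 lower. Next in p came the phosphatase gene Cdc14a, with lower values in cromolyn with AOM, and Ceacam12, with higher ones, neither of which passed. The 30 genes of smallest p held 7 with lower values (Abcg2, Cdc14a, Casp1, Ndfip1, Fzd2, Abhd2 and Ctsl), and the others had higher values, among them genes of antigen presentation (Cd74, Ciita, H2-Eb1, H2-Aa, H2-Ab1, Tap1), cytotoxic lymphocytes (Nkg7, Ccl5, Gzma) and lymphoid follicles (Ccl19, Madcam1). At an unadjusted p under 0.05 there were 128 genes (16.7%), 70 with higher (9.11%) and 58 with lower values (7.55%). In 82 genes (10.7%) every library of cromolyn with AOM lay above every library of AOM only, and in 101 (13.2%) every one lay below. The median difference of all genes tested was −0.03, with 365 genes above 0 and 403 below. DESeq2 on the same libraries called 31 genes higher (4.04%) and 11 lower (1.43%), Psmb9 and Abcg2 among them. In edgeR no gene passed without AOM-only replicate 2, AOM-only replicate 3 or cromolyn-with-AOM replicate 1 (77, 91 and 83 genes at an unadjusted p under 0.05), and 5, 15 and 3 genes passed without AOM-only replicate 1, cromolyn-with-AOM replicate 2 and cromolyn-with-AOM replicate 3.

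**Figure D1:**
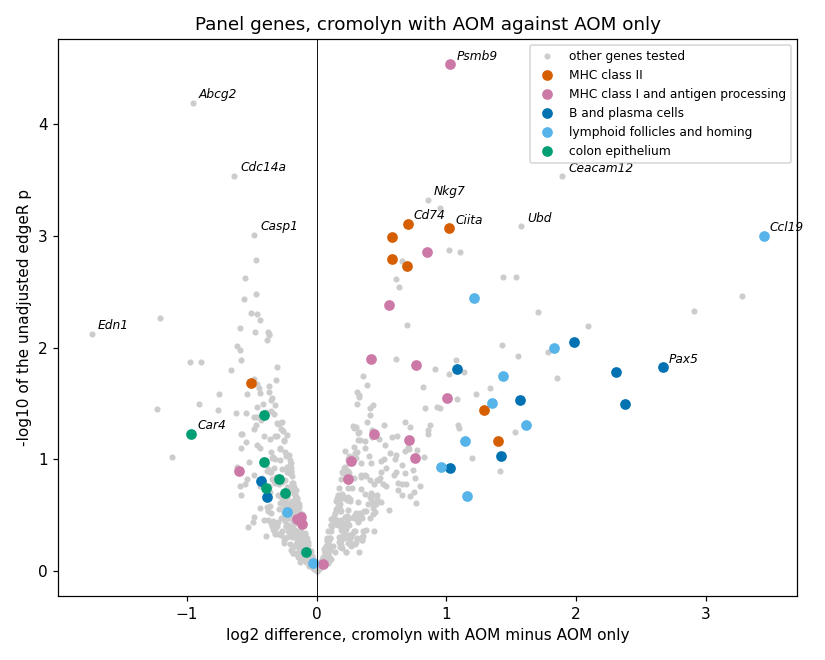
Each point is 1 of the 768 genes tested, with the log2 difference (cromolyn with AOM minus AOM only) on the x axis and the −log10 of the unadjusted edgeR p on the y axis; colours mark 5 gene lists. Psmb9 on the right and Abcg2 on the left stand highest, and members of the MHC class II, B cell and follicle lists lie mostly to the right of 0.

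Psmb9 stood at 1617, 1199 and 1375 CPM in AOM-only libraries 1 to 3 and at 2898, 2394 and 3077 CPM in cromolyn-with-AOM libraries 1 to 3. All 3 libraries given cromolyn lay above all 3 without it (log2 difference 1.03, SE 0.16, adjusted p = 0.0221). Without single libraries the difference stayed between 0.91 and 1.18, with adjusted p between 0.00882 and 0.178. Tap1, a subunit of the peptide transporter, is the neighbour of Psmb9 in the MHC region and is read from the opposite strand. It stood at 339.7, 235 and 371 CPM against 626, 501 and 538 CPM, again with no overlap, but did not pass (0.85, SE 0.21, adjusted p = 0.0714). The 250 bases before the start of Psmb9, at chr17:34187331-34187580 on the minus strand of GRCm38, share 225 bases with those before Tap1, at chr17:34187306-34187555 on the plus strand. They are shown because the gene that rose and its neighbour have this stretch in common, and beside them the upstream stretches of H2-Aa (chr17:34287824-34288073, minus strand) and H2-Eb1 (chr17:34305617-34305866, plus strand), class II genes described next. Sequences and coordinates are from RefSeq on GRCm38, while the deposited counts carry the build mm9. Capitals mark matches, on either strand, to CCAAT, to TGACGTCA or to a form of the X box, an element known from class II promoters.
Psmb9: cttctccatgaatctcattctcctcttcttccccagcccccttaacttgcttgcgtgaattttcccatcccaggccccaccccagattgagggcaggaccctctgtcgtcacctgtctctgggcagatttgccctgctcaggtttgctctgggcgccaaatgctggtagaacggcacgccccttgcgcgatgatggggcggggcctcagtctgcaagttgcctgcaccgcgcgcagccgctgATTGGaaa
H2-Aa: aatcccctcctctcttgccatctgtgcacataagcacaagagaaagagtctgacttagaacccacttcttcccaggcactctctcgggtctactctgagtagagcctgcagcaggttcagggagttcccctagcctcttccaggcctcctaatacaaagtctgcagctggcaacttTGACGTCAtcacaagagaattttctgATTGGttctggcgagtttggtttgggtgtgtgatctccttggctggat
H2-Eb1: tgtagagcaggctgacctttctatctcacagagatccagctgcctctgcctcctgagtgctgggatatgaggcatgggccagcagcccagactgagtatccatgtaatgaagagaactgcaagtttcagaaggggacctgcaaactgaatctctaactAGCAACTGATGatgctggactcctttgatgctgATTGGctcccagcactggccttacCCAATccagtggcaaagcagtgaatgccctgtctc
The Psmb9 stretch holds 1 CCAAT match, close to its start site and within the part shared with Tap1. H2-Aa holds 1 CCAAT and 1 TGACGTCA, and H2-Eb1 holds 2 CCAAT and 1 match to the X box form searched. Other forms of the X box were not searched. Of the 32851 upstream stretches of that length, 33.8% hold CCAAT, 1.55% TGACGTCA and 0.256% that X box form. No match to the form searched of the interferon-stimulated element (held by 2.98% of stretches) or to TTCNNNGAA (7.02%) was in these windows. Other forms of elements that answer to interferon were not searched, so whether these stretches hold any was not tested. The matches are descriptions of letters only.

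Among 16 tested members of the MHC class I and antigen processing list, 12 were above 0 and 4 below, with a median of 0.43, and Psmb9 was the member that passed. In 7 of them all libraries of cromolyn with AOM lay above those of AOM only (10.7% over all genes). In 1, the chaperone Pdia3, all lay below (13.2% over all genes). H2-M3, a non-classical class I gene, stood at 684, 509 and 667 CPM against 1002, 801 and 873 CPM (0.56, adjusted p = 0.111). Psmb10, another inducible proteasome subunit, stood at 10709, 9093 and 9723 CPM against 12359.7, 12263 and 13892 CPM (0.42, adjusted p = 0.181). Neither group overlapped the other for these genes, yet the differences missed the threshold. B2m, the light chain of class I, had 1 library of cromolyn with AOM within the range of AOM only, at 33717, 26726 and 26215 CPM against 43761, 31243 and 39895 CPM. H2-Q4, a class I gene outside the list with close relatives, had a difference of 0.61 (adjusted p = 0.0806), and reads of such relatives may be split between them. Outside the list, Ubd, a ubiquitin-like protein that marks proteins for the proteasome, stood at 244, 128 and 124 CPM against 582, 278 and 586 CPM (1.58, SE 0.34, adjusted p = 0.0654), with every library of cromolyn with AOM above every AOM-only library.

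**Figure D2:**
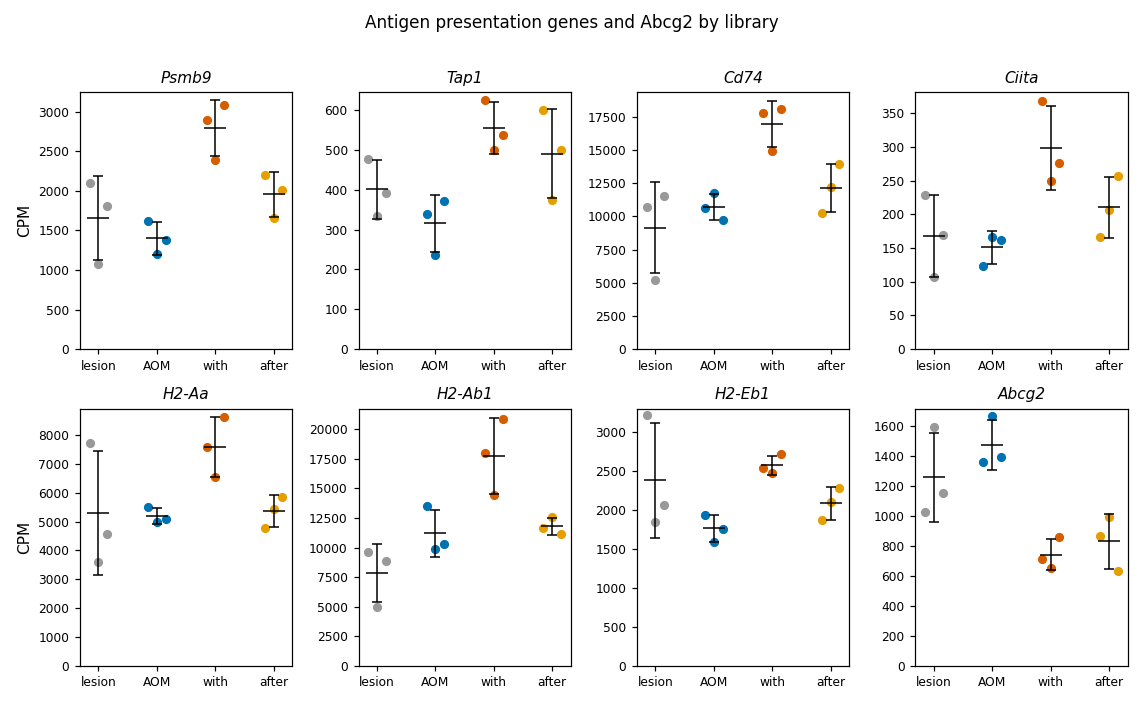
CPM of 7 antigen presentation genes and Abcg2 in wild-type lesions (lesion), AOM only (AOM), cromolyn with AOM (with) and cromolyn after AOM (after); points are libraries and bars are the mean ± SD of 3. In each panel the 3 libraries of cromolyn with AOM do not overlap the 3 of AOM only.

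The class II genes had higher values with cromolyn in nearly the whole list, although none passed. Of 8 tested members 7 were above 0, with a median of 0.70, and in 5 the groups did not overlap, against 10.7% of all genes. Cd74, the invariant chain that escorts class II molecules, stood at 10600.0, 11775 and 9755 CPM in AOM only and 17790.3, 14937 and 18128 CPM in cromolyn with AOM (0.70, SE 0.16, adjusted p = 0.0654). For Ciita, the coactivator, the values were 123, 166 and 162 CPM against 368, 249 and 276 CPM (1.02, SE 0.23, adjusted p = 0.0654). Both genes thus had their lowest library with cromolyn above their highest without it. The chains H2-Aa (5509, 4971 and 5090.0 against 7576, 6539 and 8643 CPM, adjusted p = 0.0717), H2-Ab1 (13508, 9833 and 10264 against 17966, 14402 and 20827 CPM, adjusted p = 0.0753) and H2-Eb1 (1936, 1588 and 1755 against 2536, 2466 and 2708 CPM, adjusted p = 0.0654) differed by 0.58, 0.69 and 0.58. The member below 0 was Ctss, the protease that trims the invariant chain, at −0.50 (adjusted p = 0.217). Without any single library 7 of 8 members stayed above 0, and the median lay between 0.63 and 0.81. These are bulk samples, so more cells of a type and more RNA per cell cannot be told apart. Markers of cells that carry class II lay on both sides of 0: 8 of 10 B and plasma cell genes were above 0, 5 of 6 dendritic cell genes (3 with reference gene scaling; summed level 628 to 920 CPM in AOM only and 744 to 1036 CPM in cromolyn with AOM) and 6 of 13 macrophage genes (9232 to 11228 CPM and 7519 to 8666 CPM). Their part in the class II values was not tested.

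Genes that interferons raise lay mostly above 0. Of 16 tested members of the interferon-gamma response list 12 were above 0 (median 0.35), and Psmb9 passed; Psmb9, Tap1 and Ciita belong to this list too. In 6 all libraries of cromolyn with AOM lay above those of AOM only (10.7% over all genes), and in 1 all lay below. The median was 0.66 without AOM-only replicate 3 and 0.59 without cromolyn-with-AOM replicate 2. Socs1, a feedback inhibitor of cytokine signalling, stood at 48.9, 32.5 and 68.1 CPM against 161, 159 and 72.9 CPM (1.43, adjusted p = 0.0806). The receptor chain Ifngr1 lay the other way, at 3134, 3539 and 3214 CPM in AOM only and 1923, 2479 and 2721 CPM in cromolyn with AOM (−0.44, adjusted p = 0.125), and is named after its values were seen. Interferon-gamma itself was too low to test. In the type I interferon list all 14 tested members were above 0, with a median of 0.32, and 3 did not overlap between the groups, against 10.7% of all genes. The median was 0.55 without AOM-only replicate 1 and 0.53 without cromolyn-with-AOM replicate 2, and without cromolyn-with-AOM replicate 3, 11 of the 14 were above 0. Zbp1, a sensor of nucleic acids, had the smallest p there, with 412, 467 and 427 CPM against 1051, 571 and 841 CPM (0.95, SE 0.21, adjusted p = 0.0654). Oas3, an antiviral synthetase, overlapped between the groups, at 83.8, 55.5 and 90.2 CPM against 199, 83.1 and 235 CPM. Scaling to the 3 reference genes on the panel (B2m, Rpl13a and Tfrc) moved the median of all genes from −0.03 to −0.26, and 13 of the 14 type I interferon genes and 10 of the 16 interferon-gamma genes were then above 0.

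Abcg2, a transporter that pumps drugs and other foreign compounds out of epithelial cells, was the gene that fell. It stood at 1366, 1668 and 1399 CPM in AOM only and at 714, 656 and 859 CPM in cromolyn with AOM, so the highest library with cromolyn lay below the lowest without it (−0.95, SE 0.16, adjusted p = 0.0245). Leaving out single libraries gave differences between −1.04 and −0.87, with adjusted p between 0.0363 and 0.178. All 7 tested epithelial genes also lay below 0 in this comparison (median −0.39, against −0.03 over all genes), and their part in the Abcg2 value was not tested. Of the list of 24 transporters and enzymes for foreign compounds, 3 were tested: beside Abcg2, the transporter Abcc4 stood at −0.05 and the enzyme Cda at 0.08.

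Other genes with lower values did not pass, and each of those given here had 3 of 3 libraries below every AOM-only library. The phosphatase Cdc14a stood at 1070.2, 1222 and 1184 CPM against 622, 822 and 738 CPM (−0.64, adjusted p = 0.056). Casp1, the protease that matures interleukin 1 beta, stood at 3832, 4355 and 3789 CPM against 2522, 2843 and 3002 CPM (−0.48, adjusted p = 0.0654). Ndfip1, an adaptor of ubiquitin ligases that restrains T cells, was at −0.47 (adjusted p = 0.0717), and the lysosomal protease Ctsl at −0.56 (adjusted p = 0.101). The hydrolase Abhd2 was at −0.47 (adjusted p = 0.101), and the chemokine Cxcl12 stood at 1566, 1532 and 1465 CPM against 1172, 1016 and 1051 CPM (−0.46, adjusted p = 0.115). Among the 30 genes of smallest p the lowest difference was −0.95 and the highest 3.44. Ceacam12, a member of the carcinoembryonic antigen family, was a low-count gene on the higher side, with 24 counts in AOM only and 89 in cromolyn with AOM (27.9, 9.56 and 14.0 CPM against 73.2, 58.6 and 52.4 CPM; 1.89, adjusted p = 0.056).

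Genes of mature B cells had the highest median of the lists described, and plasma cell genes did not share it. Of 10 tested members of the B and plasma cell list 8 were above 0, with a median of 1.49, while none passed. In 7 all libraries of cromolyn with AOM lay above those of AOM only, against 10.7% of all genes. Pax5, the transcription factor that maintains B cell identity, stood at 18.6, 11.5 and 36.1 CPM in AOM only and 272, 60.5 and 79.8 CPM in cromolyn with AOM (2.67, SE 0.89, adjusted p = 0.192). For Cr2, the complement receptor of B cells and follicular dendritic cells, the values were 34.9, 7.65 and 20.0 CPM against 193, 45.3 and 59.3 CPM (2.31, adjusted p = 0.197). Cd72, an inhibitory receptor of B cells, stood at 93.1, 82.2 and 88.2 CPM against 255, 104 and 185 CPM (1.08, adjusted p = 0.194). In each of these genes cromolyn-with-AOM replicate 1 was the highest library of its group. Ms4a1, which encodes CD20, showed the same order, at 123, 49.7 and 72.1 CPM against 862, 125 and 239 CPM, and is named after its values were seen. Without that replicate the median of the list was 0.82 in place of 1.49, and Pax5 was at 1.67 and Cr2 at 1.36, with 8 of 10 members still above 0. The members below 0 belong to plasma cells: the immunoglobulin light chain Igkc at 130987, 100680.0 and 88678 CPM against 86214, 44850.1 and 101815 CPM (−0.43, adjusted p = 0.446), and the survival receptor Tnfrsf17 at 86.1, 89.9 and 66.1 CPM against 56.5, 43.5 and 82.1 CPM (−0.38, adjusted p = 0.514). Both overlapped between the groups.

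Genes of lymphoid follicles and lymphocyte homing also lay mostly above 0. Of 11 tested, 9 were above 0 (median 1.22) and none passed the threshold. In 4 all libraries of cromolyn with AOM lay above those of AOM only, against 10.7% of all genes. Ccl19, the chemokine of stromal cells that draws in cells with the receptor Ccr7, had 5 counts over the AOM-only libraries and 56 over those of cromolyn with AOM, a ratio of 11.2 (95% interval 4.54 to 36, counting error only; adjusted p = 0.0654). Its receptor Ccr7 had 12 counts against 42, a ratio of 3.51 (1.82 to 7.33; adjusted p = 0.162). Madcam1, the vessel molecule by which lymphocytes enter the gut, stood at 81.4, 88.0 and 126 CPM against 264, 164 and 244 CPM (1.22, SE 0.34, adjusted p = 0.101). Ltb, a lymphotoxin needed for follicles to form, stood at 97.7, 59.3 and 82.2 CPM against 343, 109.6 and 178 CPM (1.44, adjusted p = 0.204). Every library with cromolyn lay above those without in these 4 genes. Cxcl13, the chemokine that draws B cells, overlapped, at 693, 358 and 399 CPM against 1582, 421 and 729 CPM. Leaving out cromolyn-with-AOM replicate 1 gave a median of 0.72 for the list, with 10 of 11 members above 0. How many follicles each sample held is not given, and its part in these values was not tested.

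**Figure D3:**
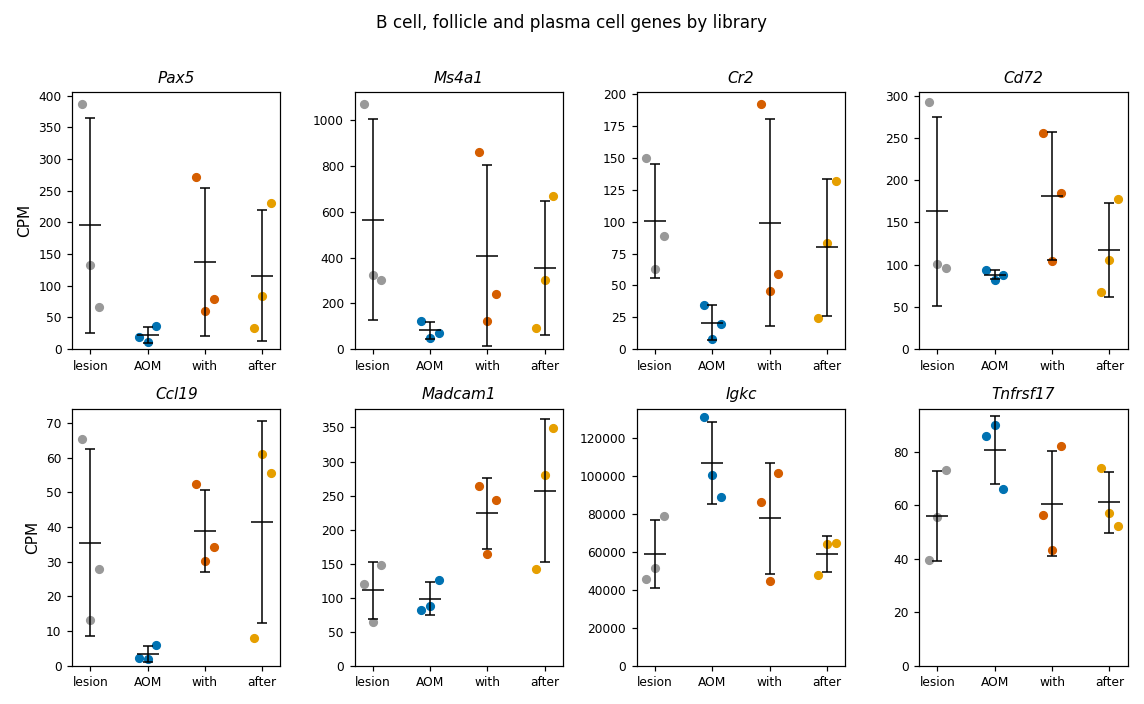
CPM of mature B cell genes (Pax5, Ms4a1, Cr2, Cd72), follicle genes (Ccl19, Madcam1) and plasma cell genes (Igkc, Tnfrsf17) by library, with group names as lesion, AOM, with and after; points are libraries and bars the mean ± SD of 3. For the 4 B cell genes 1 library of cromolyn with AOM, replicate 1, stands above the rest of its group, and Igkc and Tnfrsf17 have lower means there than in AOM only.

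T cell genes were above 0 in 14 of 14 tested members, by small amounts, with a median of 0.48. In 3 members all libraries of cromolyn with AOM lay above those of AOM only, against 10.7% of all genes. Zap70, the kinase that transmits signals of the T cell receptor, stood at 53.5, 45.9 and 50.1 CPM in AOM only and 129.8, 94.5 and 88.9 CPM in cromolyn with AOM (1.10, SE 0.27, adjusted p = 0.0714). Summed over the list, T cell genes came to 794 to 956 CPM and 988 to 1509 CPM. Cd3e and Cd3d, chains of the receptor complex, were at 0.62 and 0.71 with adjusted p of 0.317 and 0.358. Cd4 was nearly level, at 34.9, 53.6 and 66.1 CPM against 52.3, 52.9 and 52.4 CPM. Trat1, an adaptor of that complex and not in the list, had 46 counts against 354 (55.8, 5.74 and 38.1 CPM against 343, 306 and 63.8 CPM; 2.91, SE 0.76, adjusted p = 0.115), with wide spread inside both groups. With reference gene scaling 12 of the 14 T cell genes were above 0, and without cromolyn-with-AOM replicate 1, 11 were (median 0.32).

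In the cytotoxic and NK cell list 6 of 15 panel members had enough counts, 4 of them above 0 (median 0.66). In 3 all libraries of cromolyn with AOM lay above those of AOM only (10.7% over all genes), and in 1 all lay below (13.2%). Nkg7, a protein of cytotoxic granules, stood at 184, 157 and 176 CPM against 314, 278 and 321 CPM (0.86, SE 0.18, adjusted p = 0.0654). For the granule protease Gzma the values were 62.8, 55.5 and 66.1 CPM against 195, 202 and 123 CPM (1.53, SE 0.40, adjusted p = 0.0806). Its relative Gzmb stood at 30.2, 24.9 and 30.1 CPM against 60.7, 111 and 36.5 CPM (1.34, adjusted p = 0.224). All 3 genes had every cromolyn-with-AOM library above every AOM-only library, Nkg7 with the narrowest spread. Ctsw, a protease of the same cells, had 3 of 3 libraries below, at −0.38 (adjusted p = 0.614). Ccl5, a chemokine that activated T cells and NK cells release, stood at 284, 187 and 265 CPM against 511, 465 and 479 CPM (1.02, SE 0.25, adjusted p = 0.0714). Over the 26 chemokines and chemokine receptors tested, 20 were above 0 with a median of 0.42, and 16 were above 0 with reference gene scaling. In 6 of them the groups did not overlap on that side (10.7% over all genes), and in 1 on the other. The median was 0.71 without AOM-only replicate 1, 0.64 without cromolyn-with-AOM replicate 2 and 0.20, with 17 above 0, without cromolyn-with-AOM replicate 1. The 4 tested members of the neutrophil chemoattractant list, 3 above 0 and 1 below, had a median of 0.67, or 0.43 without cromolyn-with-AOM replicate 3. Cxcl5 stood at 60.5, 51.6 and 26.1 CPM against 278, 64.2 and 119 CPM (1.78, adjusted p = 0.169). The inflammatory cytokine Il1b stood at 48.9, 38.3 and 38.1 CPM against 71.2, 54.8 and 107 CPM (0.92, adjusted p = 0.259).

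In 3 of 5 tested proliferation genes the groups did not overlap, all higher with cromolyn, where 10.7% of all genes lay wholly above. Mki67, the antigen Ki-67 of dividing cells, stood at 1387, 1299 and 1287 CPM against 2551, 1693 and 1855 CPM (0.66, SE 0.16, adjusted p = 0.0717). Birc5, or survivin, was at 2983, 2228 and 2389 CPM against 4416, 3202 and 3904 CPM (0.63, adjusted p = 0.092), and the kinetochore gene Cenpf at 0.69 (adjusted p = 0.133). None passed. In all, 4 members were above 0, and the median was 0.63. Which cells divide cannot be read from bulk samples.

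Genes of the colon's own tissue lay mostly below 0. All 7 tested members of the colon epithelium list were below, with a median of −0.39. In 2 of them, Tmigd1 and Muc1, the groups did not overlap, where 13.2% of all genes lay wholly below. Car4, a carbonic anhydrase of surface colonocytes, stood at 44228, 40678 and 30479.7 CPM in AOM only and 11397, 14260.4 and 32057 CPM in cromolyn with AOM (−0.97, SE 0.45, adjusted p = 0.315). Epcam, present on all epithelial cells, stood at 17324, 17570.3 and 15829 CPM against 9122, 15472 and 15929 CPM (−0.29, adjusted p = 0.441). The libraries of cromolyn with AOM thus ranged from well below those of AOM only to level with them: replicate 1 was lowest for both and replicate 3 within the range of AOM only. No single replicate left out gave more than 1 of 7 members above 0.

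Vessel genes held 7 of 10 tested members below 0, with a median of −0.23, or −0.14 without AOM-only replicate 1. In 5 all libraries with cromolyn lay below (13.2% over all genes), and in 1 all lay above. Edn1, the vasoconstrictor endothelin 1, was the largest of these, at 928, 1044 and 1064 CPM against 195, 230.5 and 472 CPM (−1.73, SE 0.50, adjusted p = 0.138). The endothelial and progenitor marker Cd34 stood at 903, 738 and 627 CPM against 594, 397 and 479 CPM (−0.59, adjusted p = 0.135), and Kdr, a receptor for vascular endothelial growth factor, at −0.49 (adjusted p = 0.279). In both, all 3 libraries with cromolyn were the lower ones. Of 4 stromal genes 2 were below 0 without overlap (13.2% over all genes), the growth factor receptor Pdgfrb (−0.48, adjusted p = 0.209) and the collagen Col3a1 (−0.39, adjusted p = 0.266). Growth signalling had 7 of 8 members below 0 (median −0.21, or −0.32 without cromolyn-with-AOM replicate 3), with Smad3, a mediator of TGF-beta signals, at 658, 918 and 776 CPM against 483, 599 and 561 CPM (−0.48, adjusted p = 0.138). The Wnt receptor Fzd2, outside that list, stood at 393, 457 and 377 CPM against 268, 278 and 267 CPM (−0.56, adjusted p = 0.0806). Macrophage genes were divided, 6 above and 7 below 0 (median −0.12), and with reference gene scaling 11 of 13 were below. Single libraries turned their direction: the median was 0.021 without AOM-only replicate 1, 0.02 without cromolyn-with-AOM replicate 2, −0.019 without replicate 3 of that group, −0.23 without AOM-only replicate 2, and −0.26, with 11 of 13 below 0, without cromolyn-with-AOM replicate 1. Adgre1, which encodes F4/80, stood at 202, 239 and 214 CPM against 190.4, 109.6 and 171 CPM (−0.44, adjusted p = 0.468).

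**Figure D4:**
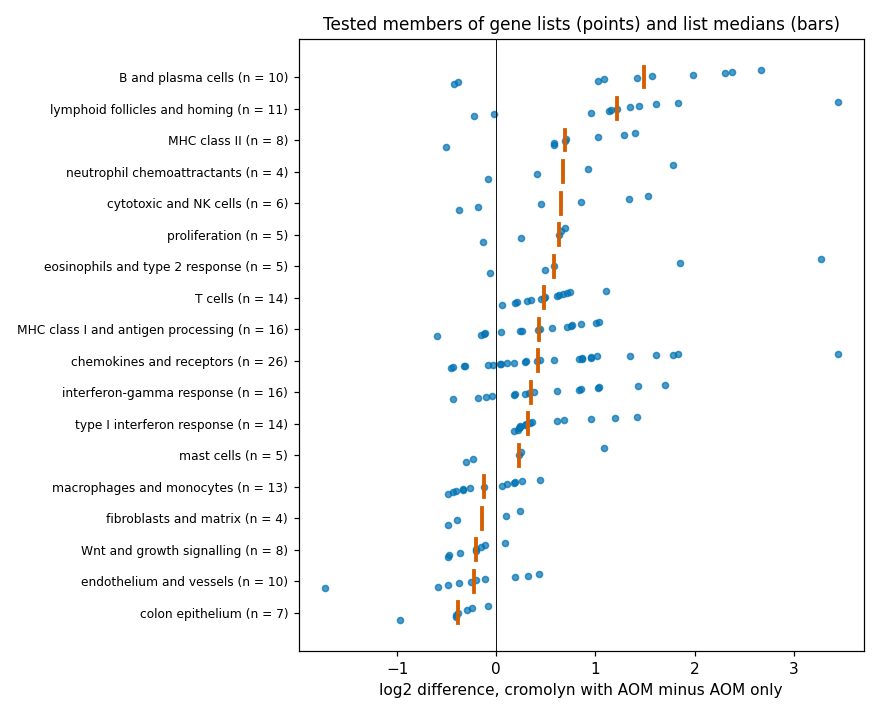
Log2 difference (x axis, cromolyn with AOM minus AOM only) of each tested member (points) of 18 gene lists, with the list's median as a bar. B cell, follicle and MHC class II lists have the highest medians (1.49, 1.22 and 0.70), and colon epithelium the lowest (−0.39).

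Genes of mast cells, the cells cromolyn is used to stabilise, showed no difference past the test. Of 20 listed genes 10 were on the panel and 5 had enough counts to test, 3 above and 2 below 0, none without overlap. Kit stood at 314, 354 and 413 CPM in AOM only and 359.9, 580.0 and 296 CPM in cromolyn with AOM (0.23, SE 0.23, adjusted p = 0.602), and the difference was −0.091 without cromolyn-with-AOM replicate 2 and −0.012 with reference gene scaling. Kit is not confined to mast cells, since pacemaker cells of the gut wall carry it too. Cpa3, a carboxypeptidase of mast cell granules, stood at 27.9, 19.1 and 34.1 CPM against 100.5, 24.6 and 43.3 CPM (1.09, SE 0.50, adjusted p = 0.299). Its counts were 39 and 80 in all, and replicate 1 of cromolyn with AOM held 48 of the 80; without it the ratio was 1.23 in place of 2.06. Hpgds, a synthase of prostaglandin D, stood at 235, 203 and 174 CPM against 149, 187 and 146 CPM (−0.31, adjusted p = 0.441). The transcription factor Gata2 was at −0.23 and the amine transporter Slc18a2 at 0.25, with adjusted p of 0.724 for both. The granule proteases and the histamine enzyme were near the limit of the panel. Tpsb2, a tryptase, had 9 counts in AOM only and 6 in cromolyn with AOM, a ratio of 0.669 (0.196 to 2.11). Cma1, the chymase, had 15 and 14 counts (ratio 0.937, 0.419 to 2.08), and Hdc, which makes histamine, 10 and 7 (ratio 0.703, 0.227 to 2.05). Ms4a2, a chain of the IgE receptor, had 5 counts and 1, and the tryptase Tpsab1 1 and 0, where a count of 0 allows up to 3. The intervals of these 3 ratios include 1 and cover counting error only. Of the 10 panel members 2 were at 0 counts in each library of cromolyn with AOM, and 0 or 1 in those of AOM only.

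**Figure D5:**
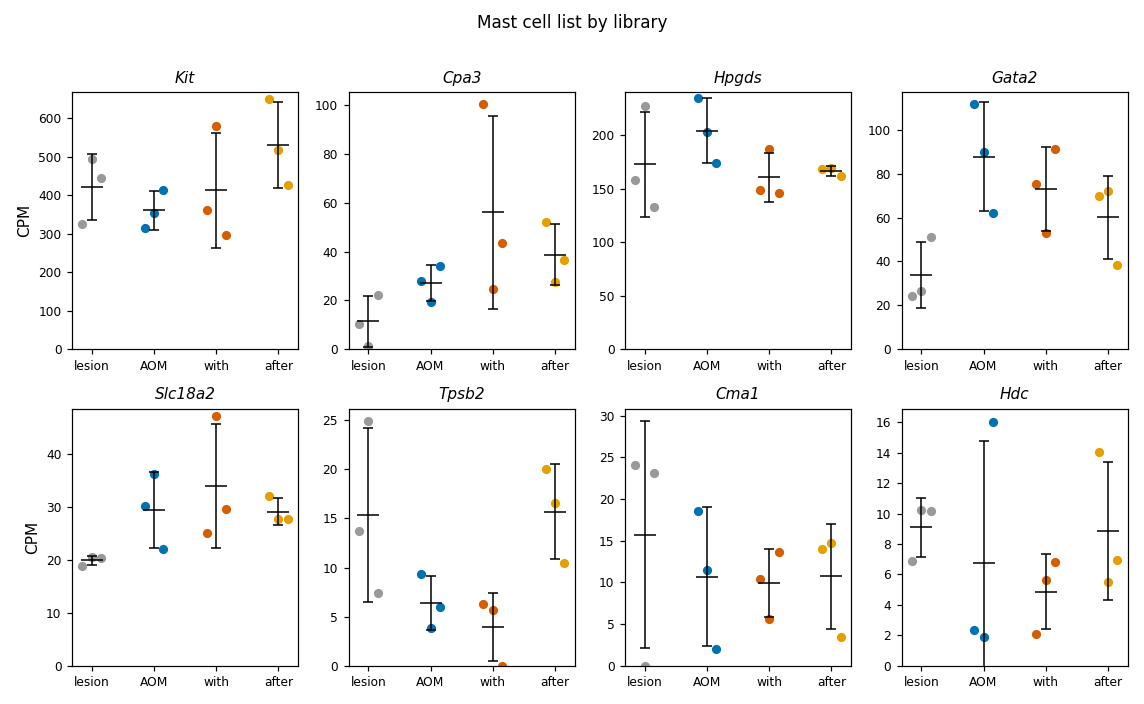
CPM of 8 mast cell list genes by library, groups as lesion, AOM, with and after; points are libraries and bars the mean ± SD of 3 (drawn from 0 upward). The libraries of cromolyn with AOM overlap those of AOM only in every panel, and the highest Cpa3 point is replicate 1 of cromolyn with AOM.

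Type 2 genes were few and low. The intervals of the ratios given for them cover counting error only, not the spread between libraries. Il13, a cytokine of type 2 lymphocytes and mast cells, had 3 counts in AOM only and 31 in cromolyn with AOM, a ratio of 10.4 (3.24 to 53.0; adjusted p = 0.101). Replicate 1 stood at 46.0 CPM and the other two at 11.3 and 6.84 CPM, and without replicate 1 the ratio was 4.50. Il13ra2, a decoy receptor for that cytokine, had 11 and 40 counts, a ratio of 3.65 (1.84 to 7.89; adjusted p = 0.209), which was 9.42 without AOM-only replicate 1 and 2.32 without cromolyn-with-AOM replicate 1. Prg2, a granule protein of eosinophils, stood at 60.5, 51.6 and 48.1 CPM against 81.6, 69.9 and 68.4 CPM (0.50, adjusted p = 0.39), and the eosinophil chemokine Ccl11 at 0.58 (adjusted p = 0.317). In all, 4 of 5 tested members were above 0.

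Comparing both schedules of cromolyn sets the drug during AOM against the drug after it. By the labels, cromolyn after AOM was given in the 3 weeks before death, whereas cromolyn with AOM had ended 3 weeks before death. The timing relative to AOM and the time since the last cromolyn cannot be told apart here. The same 3 libraries of cromolyn with AOM enter, so these values are not independent of those above. No gene passed between cromolyn with AOM and cromolyn after AOM (0% of 768; 65 genes, 8.46%, at an unadjusted p under 0.05), and DESeq2 called 1 higher (0.461%) and 2 lower (0.922%) of the 217 genes to which it gave an adjusted p. Psmb9 stood at 2204, 1651 and 2006 CPM in cromolyn after AOM, with its mean between those of AOM only and cromolyn with AOM. All of these libraries lay below those of cromolyn with AOM, with a difference of 0.51 between the schedules (SE 0.16, adjusted p = 0.341). Abcg2 stood at 871, 994 and 631 CPM, which overlaps cromolyn with AOM (−0.17, SE 0.16, adjusted p = 0.786). Nkg7 was the 1 of 6 tested members of the cytotoxic list without overlap, where 7.29% of all genes lay wholly above. Its levels were 148, 162 and 181 CPM in cromolyn after AOM, all below the libraries of cromolyn with AOM (0.88, SE 0.18, adjusted p = 0.0701). Ccl5 stood at 154, 273 and 294 CPM in cromolyn after AOM (0.99, adjusted p = 0.2). The class II genes H2-Aa and H2-Ab1 also lay wholly higher with cromolyn during AOM, by 0.49 and 0.58, with an adjusted p of 0.333 for both. Over the class II list 6 of 8 members were above 0 (median 0.38) and 4 did not overlap, against 7.29% of all genes. B cell and follicle genes showed no such order. Pax5 stood at 34, 83.0 and 231 CPM in cromolyn after AOM (0.21), and the medians of these lists were 0.15 and −0.08. Mki67, Zbp1, Socs1, Edn1 and Casp1 overlapped between the schedules, at −0.02, −0.23, −0.09, −0.05 and 0.05, with adjusted p from 0.765 to 0.994. Lower than in cromolyn after AOM were the epithelial genes Emp1, at 892, 614 and 720.2 CPM against 1299, 1789.7 and 1818 CPM (−1.15, adjusted p = 0.0632), and Tmigd1, at 399.7, 334 and 403 CPM against 675, 768 and 662 CPM (−0.90, adjusted p = 0.0701). Over the epithelial list 3 of 7 tested members were above 0 and 4 below. In 3 all libraries of cromolyn with AOM lay below those of cromolyn after AOM, as in 45 of the 768 genes tested. With 3 libraries a group, missing the threshold does not show that the schedules act alike.

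Wild-type lesions gave a second group with the labelled treatment of AOM only, again set against the same cromolyn-with-AOM libraries. Here 186 of 778 genes passed (23.9%), 86 higher (11.1%) and 100 lower (12.9%) in cromolyn with AOM. AOM only itself differed from the wild-type lesions in 170 genes (21.9%), although the labels give both the same treatment, so a difference from the lesions does not by itself go with cromolyn; an experiment or batch and the group cannot be told apart here. Psmb9 rose by 0.78 against the lesions (SE 0.22, adjusted p = 0.0239), where its levels were 2093, 1070.5 and 1809 CPM. Abcg2 fell, with a difference of −0.74 (SE 0.20, adjusted p = 0.0179), with lesion levels of 1028, 1594 and 1158 CPM. AOM only did not pass against the lesions for either gene (−0.22 with adjusted p = 0.492 for Psmb9, and 0.24 with adjusted p = 0.382 for Abcg2). Nkg7 rose by 1.45 (adjusted p = 0.000867), Zap70 by 1.69 (adjusted p = 0.0015), Ccl5 by 1.63 (adjusted p = 0.00339) and Gzma by 1.87 (adjusted p = 0.00673). In these 4 genes all libraries of cromolyn with AOM lay above all lesion libraries, as they did in 120 of the 778 genes tested. Cd74 and H2-Ab1 rose by 0.92 and 1.21 and Ciita by 0.86, with adjusted p of 0.0165, 0.00393 and 0.0391. Mki67 rose by 1.14 (adjusted p = 0.00121), and in the mast cell list Cpa3 rose by 2.21 (adjusted p = 0.0247), from 10.3, 1.47 and 22.2 CPM in the lesions. The mean of AOM only was itself above that of the lesions for Nkg7 (172 against 113 CPM), Ccl5 (245 against 160 CPM) and Cd74 (10710 against 9146 CPM). For Ciita it was below (151 against 168 CPM). For Cpa3 the mean of AOM only was also above that of the lesions. The Cpa3 ratio of cromolyn with AOM to AOM only was 1.23 without cromolyn-with-AOM replicate 1. The part of such offsets in these differences was not tested. With TMM scaling the type I interferon genes lay on the other side against the lesions, with 13 of 14 below 0 and 6 past the threshold. B cell genes stood level, with a median of −0.01 and none past the threshold: Pax5 was at 387, 133 and 65.8 CPM in the lesions. Ccl19, at 65.4, 13.2 and 27.8 CPM there, likewise overlapped cromolyn with AOM. The higher B cell and Ccl19 values of cromolyn with AOM thus lay above AOM only and overlapped the wild-type lesions. Scaling changed the balance of calls against the lesions: 178 higher and 38 lower with reference genes, with a median over all genes of 0.33 in place of 0.02, and 108 higher and 76 lower with library totals.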

How the data were processed

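Per the labels' protocols, libraries were made with a targeted RNA panel for mouse immuno-oncology genes and read on a MiSeq. The deposited table holds whole-number counts per panel gene as the authors made them, with no normalization, for 25 libraries. Per the submitters' processing notes the build was mm9 and DESeq2 was used; for the aligner, the strand setting and the unit counted (reads or molecular identifiers) the answer is not given in the sources used here. The 5 control entries, all 0, were dropped. Samples were grouped by their labels.

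Counts were tested with edgeR 4.0.16 in R 4.3.3 (TMM scaling, genes kept by filterByExpr at min.count 10 and min.total.count 15, quasi-likelihood with the robust option, Benjamini-Hochberg adjustment, threshold 0.05). One model over 9 libraries (AOM only and both cromolyn groups) gave the first 2 comparisons, and one over 12 gave that with wild-type lesions. CPM were scaled over the 12. Genes near in sequence, such as H2 genes, may share reads. Ratios of summed counts have exact conditional binomial 95% intervals. Counts simulated with planted changes, at the same spread for every gene, served only to check the code. They do not show how many true changes the test would find in these libraries. Alternatives were DESeq2 1.42.0, other scalings, filters and sets of libraries, and single libraries left out.

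Genes were named as those past the threshold and then those of smallest p up to 30, plus mast cell genes and up to 4 members of smallest p of each list described. Abcc4, B2m, Cd4, Cda, Ctss, Ctsw, Cxcl13, Emp1, Ifngr1, Igkc, Ms4a1, Pdia3 and Tnfrsf17 fall outside this rule and were chosen after their values were seen. Members and lists were chosen with earlier results of these data known. Promoter letters were found for 749 of the 988 genes. Some genes of these lists are not reported here.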

Additional observations from a re-analysis of the deposited data

How the results depend on the processing

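The count of genes past the threshold between cromolyn with AOM and AOM only (2) was unsteady. It was 18 with library totals, 24 with reference gene scaling, 42 with DESeq2, 17 with only the 2 groups compared, 1 with a mean of at least 50 counts, 7 with a replicate block, and 0 both with all 25 AOM libraries (42 genes at an unadjusted p under 0.05) and with reference scaling without B2m (113 such genes), a setting chosen after seeing the data. Leaving out single libraries gave 0 to 15. Of those called, 17 were higher and 1 lower with library totals, and 4 higher and 20 lower with reference genes. Psmb9 stayed between 0.83 and 1.18 and Abcg2 between −1.19 and −0.87 in 16 alternatives, and passed in 11 and 10 of them. Between the cromolyn schedules the count (0) was 3 with library totals, 4 with reference genes, 3 with DESeq2, 1 with only the 2 groups compared, and 0 to 1 without single libraries. Against wild-type lesions the count (186) was 82 with only the 2 groups compared, 87 with all 25 libraries, and 98 to 273 without single libraries. Direction reversed for Kit (−0.012 with reference genes, and −0.091 without cromolyn-with-AOM replicate 2, in a range of −0.091 to 0.44 without single libraries), Slc18a2 (range −0.070 to 0.42), Gata2 (range −0.43 to 0.0097), Ccl3 (range −0.45 to 0.18, with 0.080 without AOM-only replicate 1) and Fap (−0.12 with reference genes, −0.029 without B2m among them, range −0.063 to 0.33). The causes were not tested. Same-numbered libraries of the 2 groups had correlations of deviations of 0.27, 0.34 and −0.19, so the numbers were not taken to pair them. Not every library correlated best with its own number. Totals of 449880 to 544886 counts limit low genes such as the mast cell proteases.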

Other observations

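Further gene groups held no member past the threshold between cromolyn with AOM and AOM only. Immune checkpoint genes lay above 0 in 13 of 16 tested members, with a median of 0.29, and in 9 of 16 with reference gene scaling. In 4 of them all libraries of cromolyn with AOM lay above those of AOM only, and in 1 all lay below, where 10.7% and 13.2% of all genes did so. In the TNF superfamily, ligands and receptors that steer lymphocyte survival and death, 12 of 15 members lay above 0 (median 0.35), and 8 with reference gene scaling; 2 lay wholly above, a share near that of all genes (10.7%). The median was 0.15 without AOM-only replicate 2 and 0.18 without cromolyn-with-AOM replicate 1. Interleukins and their receptors were divided, 7 above and 8 below 0, with medians from −0.12 to 0.17 without single libraries. Regulatory T cell genes had 2 of 5 members above 0 (median −0.07), and their direction turned with single libraries, from −0.30 without AOM-only replicate 3 to 0.30, with 4 of 5 above 0, without AOM-only replicate 2; it was also above 0 without AOM-only replicate 1 or cromolyn-with-AOM replicates 2 or 3. Genes of lipid and energy metabolism had 5 of 8 members below 0 (median −0.30), but 4 of 8, with a median of 0.022, without AOM-only replicate 1, and a median of −0.17 without cromolyn-with-AOM replicate 2. Toll-like receptor and innate sensing genes had 3 of 7 below 0, 4 of 7 without AOM-only replicate 1, and 6 of 7 with reference gene scaling.

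Trat1, an adaptor of the T cell receptor complex, stood at 55.8, 5.74 and 38.1 CPM in AOM only, 343, 306 and 63.8 CPM in cromolyn with AOM, 579, 347 and 323 CPM in cromolyn after AOM and 433, 409 and 133 CPM in wild-type lesions. The AOM-only libraries were thus the lowest of the 4 groups. Ccl19 stood at 2.33, 1.91 and 6.01 CPM in AOM only, and at 8.01, 60.9 and 55.6 CPM in cromolyn after AOM, where 1 library was close to AOM only.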
